A study of Mus musculus with 12 samples.

Results

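The chemokines described here are 10 ligands that draw leukocytes into the pancreatic islet or organise them there: Cxcl9, Cxcl10, Cxcl13, Cxcl16, Cxcl12, Cxcl1, Ccl2, Ccl8, Ccl19 and Ccl21a. They were chosen by gene name, and 8 of the 10 had a row among the 13703 genes of the authors' comparison table. Ccl19 and Ccl21a appeared only in the count table of 49315 genes. RNA was taken from islets of female wild-type NOD/ShiLtJ mice, a strain in which lymphocytes invade the islets and destroy the beta cells. The mice were euglycemic at 9 weeks of age and then received control IgG or an antibody against CD3, part of the T cell receptor complex, weekly for 4 weeks. Anti-CD3 was given at 2.5 mg/kg, and islets were collected with collagenase 2 or 3 days after the last dose. Each group had 6 libraries of polyadenylated RNA, and all mice of both groups were of the same strain and sex. The labels leave it unsaid whether each library is 1 mouse or pooled mice, and p-values therefore speak only to the variation among these libraries, part of which may be technical. They name no antibody clone.

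Chemokines are small secreted proteins that bind receptors coupled to G proteins and steer cells that carry those receptors along their gradient. Cxcl9 and Cxcl10 are induced by interferon gamma and attract activated T cells through Cxcr3, and beta cells can make Cxcl10 when exposed to inflammatory cytokines. Cxcl13, Ccl19 and Ccl21a are the chemokines of lymphoid organs, where they place B cells (through Cxcr5) and naive T cells and dendritic cells (through Ccr7). Ccl2 attracts monocytes through Ccr2, and Cxcl1 attracts neutrophils through Cxcr2.

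Total counts ran from 10994337 to 19284740 per library. All 16 endocrine marker genes of the labelled tissue were detected and together took 1.04% to 4.18% of a library's counts. The 29 marker genes of exocrine acinar cells took 68.6% to 72.5% of the counts in anti-CD3. In IgG they took 32.4% to 71.8%, the lowest share being in IgG 6 and the next lowest in IgG 5 (55.4%). IgG 6 stood apart in leukocyte genes too: its 14 leukocyte markers summed to 10895 normalized counts, against 456 to 2924 in the other IgG libraries and 426 to 2651 in anti-CD3. Of the leukocyte markers 13 passed the filter, all 13 with fold changes below 0, as had 55.2% of all genes tested. By edgeR and by DESeq2 0 were called, against 0.0762% and 3.58% of all genes. In edgeR 4 of the 13 were lower at an unadjusted p under 0.05, against 8.68% of all genes. The 2 of smallest p, Itgax and Cd3e, had log2 fold changes of -1.60 and -1.51. Without IgG 6 they were at -1.01 and -1.17 (unadjusted p = 0.053 and 0.041 by edgeR). Fold changes of the chemokines and their receptors are therefore given with and without IgG 6. In bulk islets, fewer cells of a type and less RNA per cell cannot be told apart.

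No chemokine of the 8 that could be tested was shown to differ between anti-CD3 and IgG beyond the spread between libraries. Of these 8, which passed the filter on low counts, 0 passed edgeR's quasi-likelihood test at an adjusted p of 0.05 over 13115 genes, where 0.0762% of all genes passed. At an unadjusted p under 0.05 there were also 0 of 8, against 18.4% of all genes (8.68% lower and 9.68% higher in anti-CD3). DESeq2 called 0 of the 8, against 3.58% of all genes, and limma-voom called 0. By the authors' deposited table, too, 0 of the 8 had an adjusted p under 0.05, against 4.55% of its genes with an adjusted p. All 8 had fold changes below 0, as had 55.2% of all genes tested. Their median log2 fold change was -0.55, against -0.05 over all genes. The 2 groups overlapped for all 8, whereas they did not overlap for 1.85% of all genes. Without IgG 6 the median of the 8 was 0.08, and 6 of them were above 0.

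Cxcl9 and Cxcl10, the interferon-inducible T cell attractants, spanned 27.2-fold and 24.9-fold from the lowest to the highest of the 12 libraries. Values are the authors' normalized counts, which are read counts divided by a size factor for each library. Cxcl9 ran from 133 through a median of 387 to 2252 in IgG, and from 80.1 through 229 to 746 in anti-CD3. The groups overlapped: 1 anti-CD3 library (anti-CD3 3) lay below the lowest IgG library, and IgG 6 lay above all others. The log2 fold change of Cxcl9 was -0.97 ± 0.69 (SE, n = 6 each; adjusted p = 0.465 by edgeR), with a 95% interval from -2.47 to 0.54. Without IgG 6 it was -0.05 ± 0.60 (SE; adjusted p = 0.984 by edgeR).

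Cxcl10 ran from 344 through a median of 1155 to 6963 in IgG, and from 271 through 953 to 3236 in anti-CD3. Its highest value in anti-CD3 (anti-CD3 6) exceeded every IgG library except IgG 6, and 2 anti-CD3 libraries lay below the lowest IgG library. Anti-CD3 over IgG, Cxcl10 had a log2 fold change of -0.83 ± 0.73 (SE, n = 6 each; adjusted p = 0.550 by edgeR) and 0.09 ± 0.65 without IgG 6 (SE; adjusted p = 0.970 by edgeR). Its 95% interval ran from -2.40 to 0.75, so a 2-fold lower level could not be told from no change in these libraries.

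**Figure D1:**
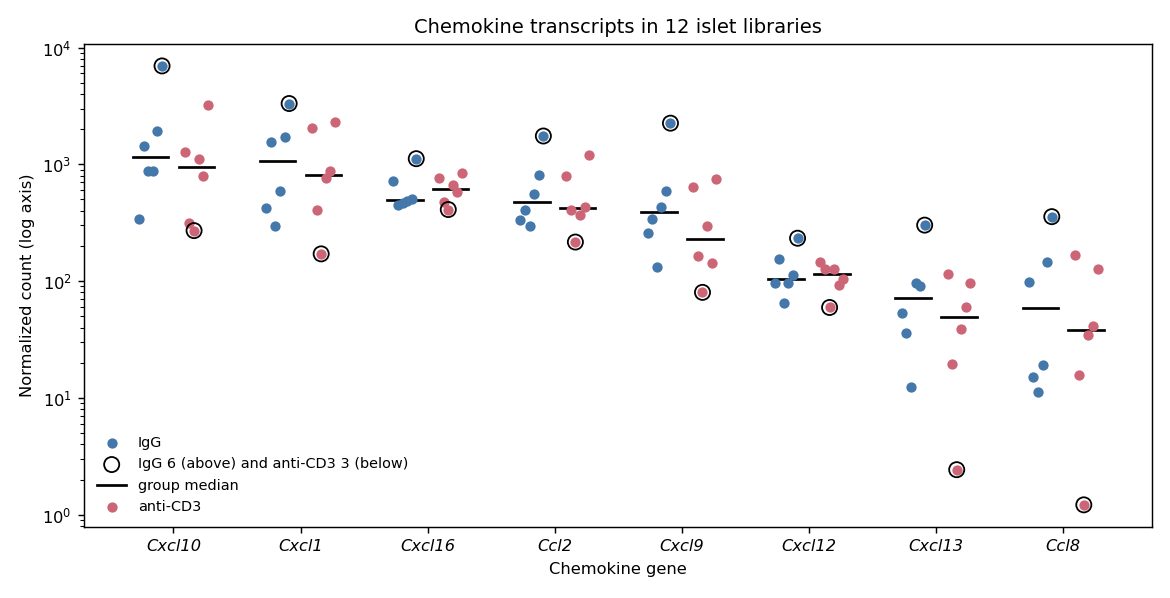
Normalized counts (authors' values, log axis) of the 8 chemokines with enough counts, 1 point per library, with IgG in blue, anti-CD3 in red and the group median as a bar. Rings mark IgG 6, the highest library for all 8 genes, and anti-CD3 3, the lowest for all 8, and the groups overlap for every gene.

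Cxcl9 and Cxcl10 are neighbours on chromosome 5 of GRCm38, both on the minus strand and 18.6 kb apart. Cxcl9 (ENSMUSG00000029417) spans 92321347 to 92328079 and Cxcl10 (ENSMUSG00000034855) spans 92346638 to 92348889. The 250 bases before the start of each are shown with those of Cxcl1, so that their upstream sequences can be compared for 3 motifs. These transcripts varied together across the libraries, but other members did so as closely. Spearman's rho was 0.85 for Cxcl9 and Cxcl10, and 0.87 for Ccl8 and Cxcl13, neither of which held a match. A link between motifs and shared variation was not tested. The motifs were TTCNNNGAA (a STAT-type site), the core of the interferon-stimulated response element and an NF-kB type site, searched on both strands. Capitals mark the exact matches, and no match overlapped another. Stretches that differ from a pattern by 1 base stay unmarked, such as gggaaattcc and ggggacttcc in Cxcl10 for the NF-kB type. A sequence without a match can therefore still hold a site of that kind. The sequences are RefSeq's on GRCm38.p6, written 5′ to 3′ on the gene's strand, for chr5:92348890-92349139 (Cxcl10, minus strand), chr5:92328080-92328329 (Cxcl9, minus strand) and chr5:90890995-90891244 (Cxcl1, plus strand).
Cxcl10: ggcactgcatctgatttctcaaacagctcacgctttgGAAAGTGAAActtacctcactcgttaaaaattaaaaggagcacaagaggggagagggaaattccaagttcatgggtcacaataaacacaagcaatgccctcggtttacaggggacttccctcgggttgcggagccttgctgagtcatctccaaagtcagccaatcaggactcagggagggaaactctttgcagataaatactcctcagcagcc
Cxcl9: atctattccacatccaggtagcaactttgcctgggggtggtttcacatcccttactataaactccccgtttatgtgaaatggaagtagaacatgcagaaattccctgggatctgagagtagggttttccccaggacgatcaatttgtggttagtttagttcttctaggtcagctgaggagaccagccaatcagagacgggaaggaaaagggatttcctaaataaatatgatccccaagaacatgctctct
Cxcl1: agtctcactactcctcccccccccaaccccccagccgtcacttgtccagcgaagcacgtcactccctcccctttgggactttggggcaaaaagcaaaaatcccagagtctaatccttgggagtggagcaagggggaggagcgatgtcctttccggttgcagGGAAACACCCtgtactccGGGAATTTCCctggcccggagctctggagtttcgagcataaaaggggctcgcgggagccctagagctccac
The Cxcl10 sequence held 1 match to the interferon-stimulated response element, from base -213 to -204 counted from the start site. The Cxcl1 sequence held 2 NF-kB type matches, on the minus strand from -89 to -80 and on the plus strand from -71 to -62, and the Cxcl9 sequence held none of the 3 motifs. Among 32536 different upstream sequences of the same length, 2.98% held the response element, 1.40% the NF-kB type motif and 7.04% the STAT-type site. A promoter was found for 8 of the 10 members. Ccl19 held 1 response element match, from -208 to -199, and the other members with a sequence held none.

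Cxcl16, which is made both as a membrane-bound adhesion molecule and as a soluble ligand of Cxcr6, had the smallest spread of the 8 that passed the filter. It ran from 447 through a median of 497 to 1118 in IgG, and from 410 through 619 to 846 in anti-CD3. The median was higher in anti-CD3 and the highest library was IgG 6, so the groups overlapped. The log2 fold change was -0.001 ± 0.24 (SE, n = 6 each; adjusted p = 0.998 by edgeR), with a 95% interval from -0.51 to 0.51, and 0.25 without IgG 6. Its within-group SD of log2 CPM (read counts relative to library size, scaled by the trimmed mean of M values, TMM) was 0.45, near the median of all genes tested (0.39). By contrast Cxcl9, Cxcl10, Cxcl13, Cxcl1 and Ccl8 had within-group SDs of 1.31 to 2.03, above those of at least 97.3% of the genes.

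Of the lymphoid organ chemokines, Cxcl13 was measured in every library, while Ccl19 and Ccl21a were scarce or not detected. Cxcl13, the B cell attractant, ran from 12.4 through a median of 72.1 to 302 normalized counts in IgG, and from 2.43 through 49.3 to 116 in anti-CD3. The lowest value came from 2 raw counts in anti-CD3 3. Cxcl13 had a log2 fold change of -0.88 ± 0.75 (SE, n = 6 each; adjusted p = 0.538 by edgeR) and -0.10 without IgG 6.

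Ccl19, the Ccr7 ligand made by stromal cells and dendritic cells of lymphoid tissue, had 25 counts in all, 19 in IgG and 6 in anti-CD3. Of these 10 were in IgG 6, 6 in IgG 2 and 3 in IgG 5, and no anti-CD3 library had more than 2. It did not pass the filter. In a fit without a filter its log2 fold change was -0.72 ± 1.04 (SE, n = 6 each; adjusted p = 0.724 by edgeR). Ccl21a, the other Ccr7 ligand, had 0 counts in every library, which allows up to 0.0330 CPM over the IgG group and 0.0328 over the anti-CD3 group. These limits cover counting error only. Ccl21a has near-identical copies, and Ccl21b and 3 predicted genes of the same family (Gm13304, Gm21541 and Gm10591) also had 0 counts. The sources used here do not tell how multi-mapped reads were counted, and the zeros do not show that the transcript was absent. Ccl19 and Ccl21a lie 16.3 kb apart on chromosome 4 of GRCm38.

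Cxcl12, the stromal chemokine that retains lymphocytes and progenitors through Cxcr4, varied less than the other members except Cxcl16, with a within-group SD of log2 CPM of 0.54, above that of 72.2% of genes. It ran from 65.3 through a median of 105 to 233 in IgG, and from 59.5 through 116 to 144 in anti-CD3. Here too the median was higher in anti-CD3 while IgG 6 was the highest library. For Cxcl12 the log2 fold change was -0.21 ± 0.28 (SE, n = 6 each; adjusted p = 0.704 by edgeR) and 0.05 without IgG 6.

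Ccl2, Ccl8 and Cxcl1 were measured at very different levels. Ccl2 ran from 299 through a median of 479 to 1749 in IgG, and from 216 through 419 to 1192 in anti-CD3, where anti-CD3 6 was the highest. Its log2 fold change was -0.29 ± 0.49 (SE, n = 6 each; adjusted p = 0.777 by edgeR) and 0.24 without IgG 6. Ccl8, a ligand of Ccr8 in the mouse whose gene lies 77.7 kb from Ccl2 on chromosome 11, had the largest spread of the 8. It ran from 11.3 through a median of 58.8 to 356 in IgG, and from 1.21, a single raw count in anti-CD3 3, through 37.9 to 166 in anti-CD3. With so wide a spread, the log2 fold change of Ccl8 was -0.80 ± 0.94 (SE, n = 6 each; adjusted p = 0.660 by edgeR), with a 95% interval from -2.83 to 1.22, and 0.08 without IgG 6.

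Cxcl1 ran from 299 through a median of 1075 to 3318 in IgG, and from 171 through 814 to 2298 in anti-CD3. Anti-CD3 1 and anti-CD3 6 followed IgG 6 as the next highest of the 12 libraries. The log2 fold change of Cxcl1 was -0.27 ± 0.67 (SE, n = 6 each; adjusted p = 0.849 by edgeR) and 0.24 without IgG 6.

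**Figure D2:**
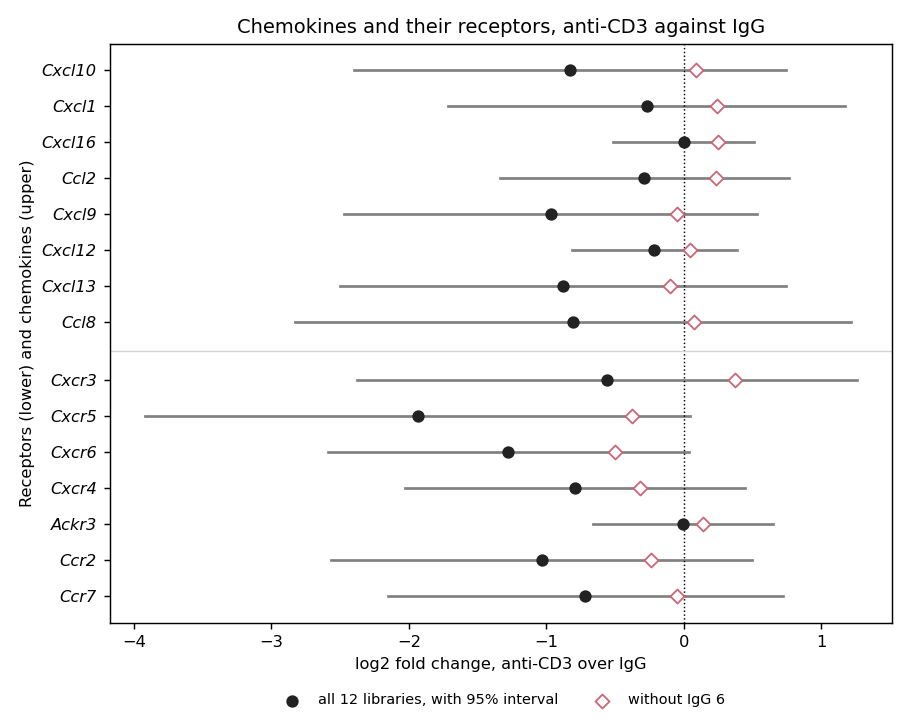
Log2 fold changes of anti-CD3 over IgG from edgeR for 8 chemokines and 7 of their receptors, as filled points with 95% intervals (n = 6 per group), and as open diamonds without IgG 6. Every interval includes 0, and every diamond lies to the right of its point.

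No receptor was called either. Of the 9 receptors of these chemokines, 7 passed the filter, and all 7 had fold changes below 0, as had 55.2% of all genes. By edgeR 0 were called and 0 had an unadjusted p under 0.05, against 0.0762% and 18.4% of all genes. DESeq2 called 0, against 3.58%. In the authors' deposited table Cxcr5 and Cxcr6 had an unadjusted p of 0.040 and 0.027 (adjusted p = 0.211 and 0.174). Cxcr5, the Cxcl13 receptor of B cells and follicular T cells, was at -1.94 ± 0.92 (SE, n = 6 each; adjusted p = 0.279 by edgeR), or -0.38 without IgG 6. It ran from 9.59 through 50.2 to 506 normalized counts in IgG and from 4.86 through 31.9 to 53.9 in anti-CD3, and IgG 6 lay far above the other 11 libraries.

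Cxcr6, the Cxcl16 receptor of activated and resident T cells, was at -1.28 ± 0.61 (SE, n = 6 each; adjusted p = 0.282 by edgeR), or -0.50 without IgG 6. Ccr2, carried by monocytes, was at -1.03 ± 0.71, Cxcr4 at -0.79 ± 0.57, Ccr7 at -0.72 ± 0.66 and Cxcr3 at -0.56 ± 0.84 (SE). Without IgG 6 these were -0.23, -0.32, -0.05 and 0.37. Ackr3, an atypical receptor that takes up Cxcl12 without signalling through G proteins, was at -0.004 ± 0.31 (SE). Ccr7 reached 3214 normalized counts in IgG 6 and at least 119 elsewhere, although its ligands Ccl19 and Ccl21a had 25 and 0 counts. Cxcr2, the neutrophil receptor of Cxcl1, had 14 counts in IgG and 1 in anti-CD3, and Ccr8 had 147 (115 of them in IgG 6) and 52. Neither passed the filter.

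Ratios of ligand to receptor within a library are a description that was not tested. The log2 ratio of Cxcl16 to Cxcr6 ran from 2.38 (IgG 6) through a median of 3.41 to 4.20 in IgG, and from 3.42 through 4.41 to 5.71 (anti-CD3 3) in anti-CD3. That of Ccl2 to Ccr2 ran from 3.46 (IgG 6) through 3.80 to 4.53, and from 3.80 through 4.41 to 5.69 (anti-CD3 3). In these ratios the library at the low end, IgG 6, had the highest summed leukocyte markers and that at the high end, anti-CD3 3, the lowest, and the groups overlapped. The high ends are uncertain, since anti-CD3 3 had only 5 raw counts of Cxcr6 and 2 of Ccr2. The ratio of Cxcl13 to Cxcr5 ran from -0.97 through a median of 0.24 to 3.10 in IgG, with the anti-CD3 range (-0.66 to 1.5) inside it. The ratio of Cxcl9 to Cxcl10 ran from -2.72 to -0.41 in IgG, again with anti-CD3 inside it (-2.46 to -0.93), and Cxcl10 had the higher CPM in all 12 libraries.

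Per exonic length, Cxcl10, Cxcl1 and Ccl2 were the leading transcripts of the 10. Over the 12 libraries the median level was 30.2 CPM per kb for Cxcl10, 29.4 for Cxcl1 and 25.1 for Ccl2, and each of these lay above at least 95.9% of the genes tested. Their ranges over libraries, 8.30 to 207, 6.30 to 118 and 13.1 to 103 CPM per kb, overlapped almost wholly, so their order is not resolved. Cxcl16 (12.1), Cxcl9 (7.17), Ccl8 (5.02) and Cxcl13 (3.33) followed in median level, again with overlapping ranges. Cxcl12 was the lowest of the 8 at 0.904 CPM per kb, with a range of 0.502 to 1.91 that lay below every library of Cxcl10, Cxcl1, Ccl2 and Cxcl16. Its level was divided by all 8176 annotated exonic bases, whereas its longest transcript has 5627. A shorter length would raise its level per kb, and its place was not checked with other lengths. Among 37 chemokine genes, each taken per length, the 10 members made up 55.7% to 70.7% of chemokine transcripts in a library. The leading chemokine was Cxcl10 in 4 libraries, Cxcl1 in 4 and Ccl2 in 4, and each of these sets held libraries of both groups.

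The members varied together from library to library, and their order did not separate the treatments. IgG 6 was the highest library for all 8 and anti-CD3 3 the lowest for all 8. Anti-CD3 1 was among the 3 highest for 6 of the 8 and anti-CD3 6 for 5, whereas IgG 3 was among the 3 lowest for 7. Over the 28 pairs of members, Spearman's rho of log2 CPM across the 12 libraries ran from 0.42 to 0.90 with a median of 0.77. These values are a description, since all members share the library, its depth and its content of exocrine RNA.

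**Figure D3:**
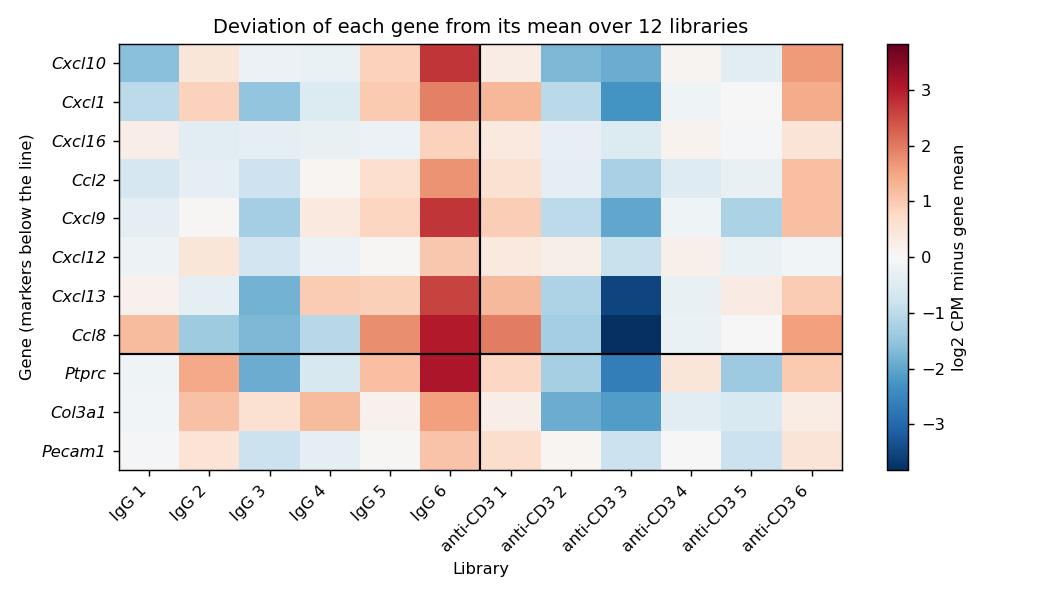
Log2 CPM of 8 chemokines and 3 marker genes (Ptprc, Col3a1 and Pecam1) in 12 libraries, each as its difference from the gene's mean, from blue (below) to red (above), with a vertical line between IgG and anti-CD3. The column of IgG 6 is red and that of anti-CD3 3 is blue for every chemokine, and Ptprc follows the same order at both ends.

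The chemokines were correlated with Ptprc, the common leukocyte antigen CD45. Ptprc ran from 2.31 (IgG 3) through a median of 4.70 to 7.29 (IgG 6) log2 CPM in IgG, and from 1.57 (anti-CD3 3) through 3.81 to 5.20 (anti-CD3 6) in anti-CD3. Correlations of the 8 members with Ptprc, with Col3a1 (a collagen of stromal cells) and with Pecam1 (an endothelial adhesion molecule) gave 24 relations, over which p-values were adjusted.

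With Ptprc, Pearson's r over 12 libraries ran from 0.69 for Cxcl16 to 0.93 for Cxcl9, and 8 of 8 passed (6 of 8 by Spearman's rho). The share of all genes that would pass was not computed for any of the marker genes. The counts that passed therefore do not set the chemokines apart from other genes. For Cxcl9, r was 0.93 and rho 0.87 (permutation p = 1e-05, the smallest that the resamples can give, and 0.00051; adjusted p = 0.00024 and 0.00408). For Cxcl1, r was 0.91 and rho 0.86 (permutation p = 0.00012 and 0.0007; adjusted p = 0.00096 and 0.0042). After leaving out IgG 6 and anti-CD3 3, the libraries farthest from the median of Ptprc, r was 0.83 for Cxcl9 and 0.83 for Cxcl1 (permutation adjusted p = 0.047 for each). For the other 6 members r was between 0.35 and 0.70 without them and did not pass after adjustment. Leaving out both ends also narrows the range of Ptprc, so this cannot show whether the calls for these 6 members rest on those libraries. Of these 6 members Cxcl12 had r = 0.70 and Cxcl10 r = 0.65 (unadjusted permutation p = 0.0235 and 0.0431). Within IgG r ran from 0.62 to 0.98, and only Cxcl12 passed (r = 0.98, permutation adjusted p = 0.0167). Within anti-CD3 r ran from 0.74 to 0.97. There Cxcl9, Cxcl10, Cxcl13, Cxcl16, Cxcl1 and Ccl8 passed (permutation adjusted p from 0.0111 to 0.0485), and Cxcl12 and Ccl2 did not.

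**Figure D4:**
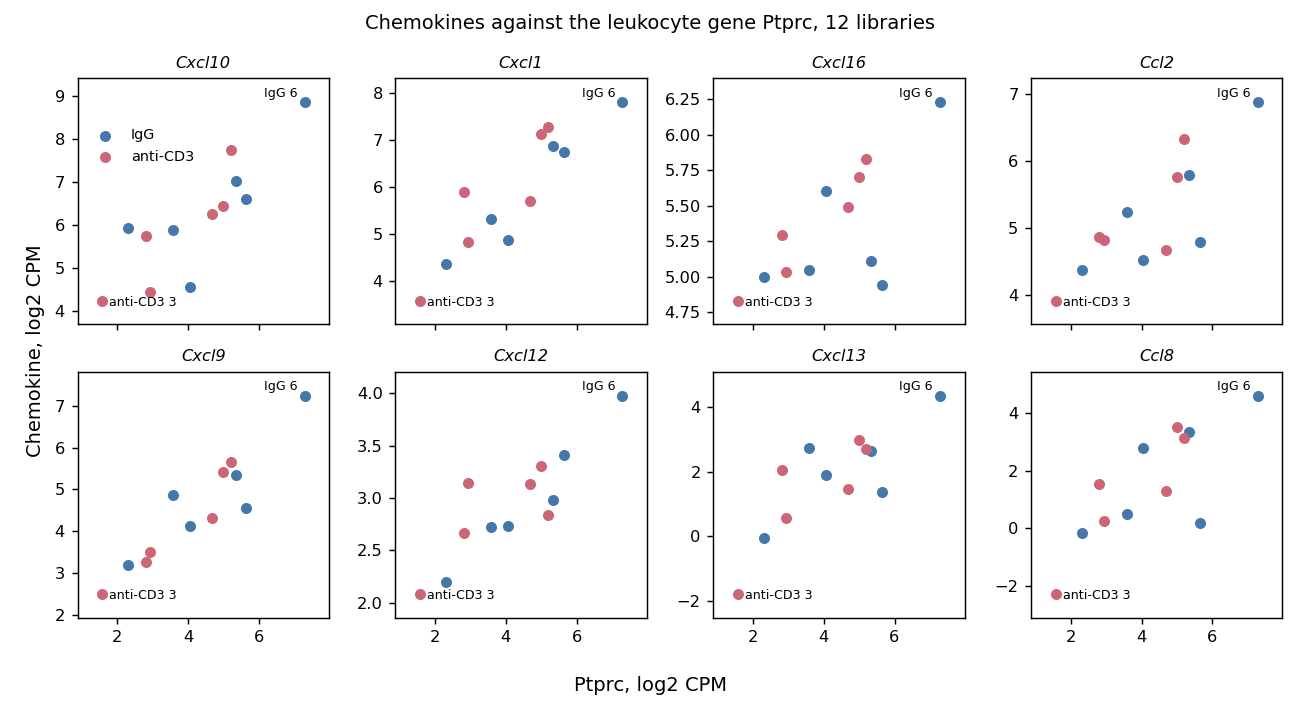
Log2 CPM of each of 8 chemokines against that of Ptprc, 1 point per library, with IgG in blue and anti-CD3 in red. Cxcl9 and Cxcl1 follow Ptprc most closely (r = 0.93 and 0.91), and IgG 6 and anti-CD3 3 form the ends of every panel.

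With the vessel and stromal genes the order of the members differed, but differences between correlations were not tested. Cxcl12 was the member closest to Pecam1, with r = 0.90 and rho = 0.92 (permutation p = 7e-05 and 5e-05, adjusted p = 0.00084 and 0.0012). With Ptprc its values were close to these, at r = 0.87 and rho = 0.83 (permutation adjusted p = 0.0012 and 0.00802). Without IgG 6 and IgG 3, the farthest in Pecam1, r of Cxcl12 was 0.81 (permutation adjusted p = 0.047). The other 7 members had r of 0.68 to 0.86 with Pecam1 over 12 libraries and did not pass without those libraries. Over 12 libraries all 8 members passed with Pecam1 by r, as they did with Ptprc, and 3 passed by rho. With Col3a1, 4 of 8 passed by r and 1 by rho (Cxcl10, r = 0.74 and rho = 0.70; permutation p = 0.00642 and 0.0145; adjusted p = 0.0128 and 0.0409). No relation with Col3a1 passed without anti-CD3 3 and anti-CD3 2, its farthest libraries. Within anti-CD3 r with Col3a1 ran from 0.53 to 0.98 and 5 of 8 passed (Cxcl10, Cxcl13, Cxcl16, Cxcl1 and Ccl8), whereas within IgG r ran from -0.06 to 0.67 and 0 passed; the difference between the groups was not tested. Ptprc and Col3a1 also had fold changes below 0, with Col3a1 at -1.37 ± 0.44 and Ptprc at -1.34 ± 0.80 (SE, n = 6 each; adjusted p = 0.146 and 0.383 by edgeR). Col3a1 was called by DESeq2 (adjusted p = 0.0313) and in the authors' deposited table (adjusted p = 0.0295), and Ptprc by neither. Without IgG 6 Col3a1 was at -1.18 in edgeR. All 9 stromal and all 7 endothelial markers had fold changes below 0, as had 55.2% of all genes. By edgeR 0 were called, against 0.0762%. DESeq2 called 2 of the 9 stromal markers (Col3a1 and Col1a1) and 0 of the endothelial ones, against 3.58% of all genes. In edgeR 4 of 9 stromal and 1 of 7 endothelial markers were lower at an unadjusted p under 0.05, against 8.68% of all genes. Stromal markers took 0.00785% to 0.0792% of counts in IgG, against 0.00397% to 0.0129% in anti-CD3, and endothelial markers 0.00742% to 0.0564% against 0.00579% to 0.0126%. The part of vessel and stromal content in the chemokine values was not tested.

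The genes whose order over the 12 libraries was most like that of each member are given by Spearman's rho of log2 CPM, as a description. Those nearest to Cxcl9 were Mrc2 (0.99) and Ccr1 (0.98), and those nearest to Cxcl10 were Cybb (0.99), Ifi208 (0.98) and Cd69 (0.98). Cxcl1 was nearest to Srgn (0.99), Evi2a (0.99) and Sp140 (0.98). Ccl8 was nearest to Cd79b (0.99), Rab5c (0.97) and Tmsb10 (0.97). For Cxcl9, Cxcl1 and Cxcl10 as many as 186, 139 and 111 genes exceeded a rho of 0.9, so the genes named are the first of many. Cxcl12 was nearest to Col16a1 (1.00), Plekhg1 (0.97) and Hk1 (0.97), with 28 genes over 0.9. Cxcl13 was nearest to Hamp (0.95), Trf (0.94) and Layn (0.93), Cxcl16 to Gmnn, Timp1 and Fam49b (0.92, 0.92 and 0.91), and Ccl2 to Cgas, Oaf and Il33 (0.94, 0.92 and 0.91). Ccl2, Cxcl16 and Cxcl13 had 4, 7 and 12 genes over 0.9.

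The rest of the chemokine system and the pathways that induce it showed no called gene either. For comparison, edgeR called 0.0762% of all genes tested and DESeq2 3.58%. In edgeR 18.4% of all genes had an unadjusted p under 0.05, and 55.2% had fold changes below 0. Of 27 other chemokines, 16 passed the filter, with 5 above and 11 below 0, a median log2 fold change of -0.20 and 0 called by edgeR, at an unadjusted p under 0.05 or by DESeq2. Those with the smallest p were Cx3cl1, the membrane-anchored fractalkine, at -0.61 ± 0.31, Ccl27a at 0.74 ± 0.39, Cxcl11, a further Cxcr3 ligand, at -1.13 ± 0.92 and Ccl7, a further Ccr2 ligand, at -0.63 ± 0.59 (SE). Without IgG 6, Cx3cl1 was at -0.41, Ccl27a at 0.78, Cxcl11 at 0.48 and Ccl7 at 0.09. Of 10 other chemokine receptors 3 were tested, all 3 below 0, with 0 called by edgeR or DESeq2 and 1 at an unadjusted p under 0.05. Ccr1 was at -0.91 ± 0.65 (SE), or 0.12 without IgG 6. The atypical receptor Ackr1 was at -0.71 ± 0.68 and Ccrl2, which presents chemerin, at -0.08 ± 0.66 (SE); without IgG 6 they were at 0.42 and 0.58.

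Of 10 genes of interferon gamma signalling 9 were tested, 2 above and 7 below 0, with a median of -0.46. None was called by edgeR or DESeq2, against 0.0762% and 3.58% of all genes. In edgeR 1 had an unadjusted p under 0.05, against 18.4% of all genes. It was the kinase gene Jak1 at -0.43 ± 0.18 (SE, n = 6 each, with adjusted p = 0.222 by edgeR). Of 16 genes of NF-kB and inflammatory cytokines 15 were tested, 4 above and 11 below 0, with a median of -0.15. Again 0 were called by either tool and 1 had an unadjusted p under 0.05 in edgeR, Nfkb2 at -0.61 ± 0.25. Nfkb1 was at -0.68 ± 0.32 (SE for both). Without IgG 6, Nfkb2 was at -0.37 with an unadjusted p of 0.0759 in edgeR, Nfkb1 at -0.28 and Jak1 at -0.30 with an unadjusted p of 0.0739. Of 14 lymphotoxin and lymphoid stroma genes 7 were tested, with a median of -0.58, 0 called by either tool and 1 at an unadjusted p under 0.05 in edgeR. This was Traf3, an inhibitor of the noncanonical NF-kB pathway, at -0.58 ± 0.17 (SE, n = 6 each; adjusted p = 0.121 by edgeR), and the adhesion molecule Icam1 was at -0.68 ± 0.37 (SE). Without IgG 6 Traf3 was at -0.46 (unadjusted p = 0.0112 and adjusted p = 0.189 by edgeR) and Icam1 at -0.33.

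Fits that took account of leukocyte or exocrine content changed the sign of most members. With log2 CPM of Ptprc as a covariate, 5 of the 8 were above 0 and 3 below, with a median of 0.20. Cxcl9, Cxcl10 and Cxcl13 were then at -0.08 ± 0.26, -0.06 ± 0.39 and -0.08 ± 0.49 (SE). In this fit Cxcl1 was at 0.60 ± 0.26 (SE, n = 6 each; unadjusted p = 0.0363 and adjusted p = 0.242 by edgeR), the 1 member with an unadjusted p under 0.05 in it. With the mean log2 CPM of the acinar markers as a covariate all 8 were above 0, with a median of 0.58, and the same held without IgG 5 and IgG 6, with a median of 0.31. No member was called under any of the 24 alternatives, where adjusted p ran from 0.242 to 0.998. Both covariates are measured on the same libraries and could themselves differ with treatment, so these fits do not separate cell content from expression per cell.

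**Figure D5:**
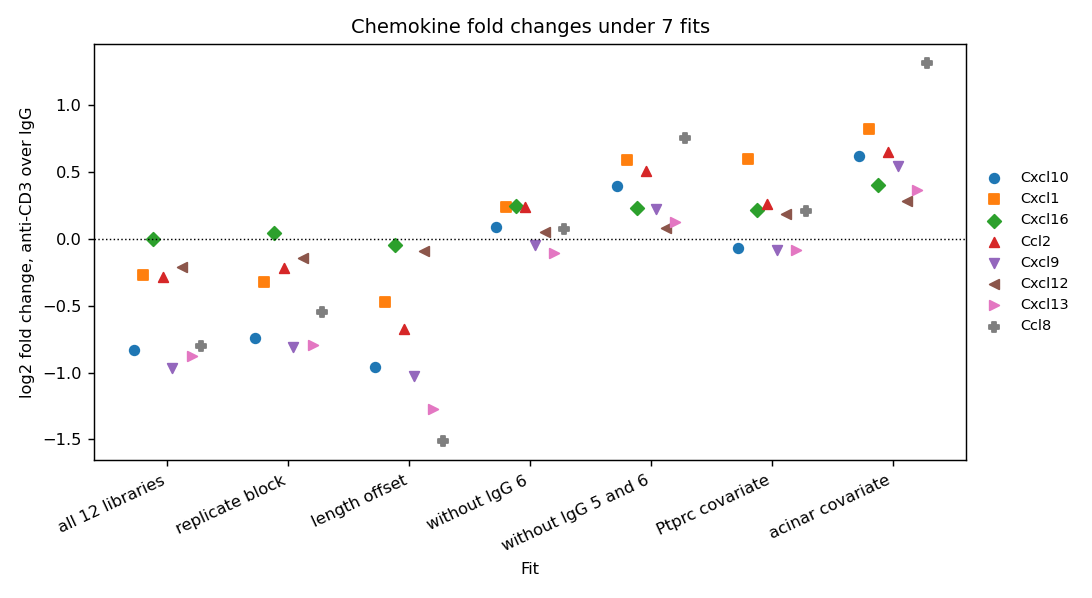
Log2 fold changes of anti-CD3 over IgG for 8 chemokines under 7 edgeR fits, 1 symbol per gene, with a dotted line at 0. With all 12 libraries the 8 lie between -0.97 and -0.001, and without IgG 5 and IgG 6 or with the acinar covariate they lie above 0.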

How the data were processed

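Polyadenylated RNA of islets was sequenced as read pairs in 6 IgG and 6 anti-CD3 libraries, grouped by sample title. Per the submitters' processing notes, Trimmomatic 0.36, STAR 2.5.2b, GRCm38 (mm10), featureCounts of Subread 1.5.2 and DESeq2 were used, without order or options. The sources used here do not give annotation, strand setting or multi-mapping options. The authors deposited whole-number counts per gene. The deposited normalized signal equals those counts divided by 1 size factor per library. The authors' deposited table also gives log2 fold changes and p-values, with an adjusted p of NA for 2935 genes, left as NA.

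Counts were tested in R 4.3.3 with edgeR 4.0.16 (filterByExpr with minimum count 10 and total 15, TMM factors 0.733 to 2.36, robust quasi-likelihood F test, two-sided, Benjamini-Hochberg over 13115 genes). SEs are the absolute log2 fold change over the square root of F, and 95% intervals from the degrees of freedom of the fit. Log2 CPM used a prior count of 2. Correlations used 100000 permutations, or all 720 within a group, two-sided. Lengths are exonic bases of GENCODE M21. The code was tested on simulated data. Alternatives were DESeq2 1.42.0, limma-voom (limma 3.58.1), RLE and upper-quartile factors, no filter or a CPM filter, estimation that was not robust, the replicate block, acinar and Ptprc covariates, a length offset (lowess, span 0.3) and left-out libraries.

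The members, gene lists and alternatives were chosen with earlier results of these data known. Named genes were the members, their receptors, the 4 other chemokines and the 2 genes of each further list with the smallest p, and the 3 genes of highest rho with each member. Values are not given here for most marker genes among them, and protein sequences were not used here. Some genes that this rule names are not reported here.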

Additional observations from a re-analysis of the deposited data

Results flagged for a closer look

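Within each group of 6, a library was marked when its gap to the nearest other library divided by the group's range in normalized counts, exceeded Dixon's 95% critical value. Of 32 groups tested, 8 chemokines and 8 receptors in each treatment, 11 had such a library. A rate of about 1 in 20 groups holds for independent, normally distributed values. These were untransformed counts of wide range from genes that varied together, so the 11 cannot be set against that rate. In 10 of the 11 the library was IgG 6, as the highest, so these are 1 library's departure and not 10 independent events. Among the chemokines the ratios in IgG were 0.783 for Cxcl9, 0.762 for Cxcl10, 0.711 for Cxcl13 and 0.647 for Ccl2. Among the receptors they were 0.865 for Cxcr5, 0.84 for Cxcr6, 0.778 for Ccr8, 0.756 for Ccr2, 0.667 for Cxcr3 and 0.658 for Ccr7. The remaining one was Cxcl10 in anti-CD3, where anti-CD3 6 was the highest with a ratio of 0.662.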

How the results depend on the processing

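No chemokine crossed the threshold under 24 alternatives. Of 192 values of the 8 that passed the filter, 158 kept the sign of the fit to all libraries and 34 reversed. The number of genes called over the whole table was 10, against 469 with DESeq2, 135 with limma-voom, 167 without a filter, 181 with the Ptprc covariate, 6 with upper-quartile factors, 5 without robust estimation, 4 with the length offset, 0 with the acinar covariate, and 1 without IgG 5 and IgG 6. Leaving out 1 library gave between 0 (without IgG 5, or without number 1, 5 or 6 of anti-CD3) and 203 (without anti-CD3 2); the cause was not tested. The replicate block gave 0 calls. Same-numbered libraries correlated between -0.29 and 0.55 in their deviations, with 3 of 6 pairs above 0.1 and 5 of 12 libraries best with their own number. The libraries numbered 3 (0.55) and those numbered 6 (0.54) were each best with the other of their number. These values do not settle whether the numbers pair the libraries. With the block Cxcl16 was at 0.041 and Ccrl2 at 0.20.

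Reversed with the acinar covariate were Cxcl9 (0.54), Cxcl10 (0.62), Cxcl13 (0.37), Cxcl16 (0.40), Cxcl12 (0.29), Cxcl1 (0.82), Ccl2 (0.65), Ccl8 (1.32), Cxcr3 (1.19), Cxcr5 (0.70), Cxcr4 (0.16), Ackr3 (0.26), Ccr2 (0.15), Ccr7 (0.73), Cxcl11 (1.30), Ccl7 (0.71), Ackr1 (1.01), Ccrl2 (0.91), Ccr1 (0.73) and Nfkb1 (0.028). Without IgG 5 and IgG 6 they were Cxcl9 (0.23), Cxcl10 (0.39), Cxcl13 (0.13), Cxcl16 (0.23), Cxcl12 (0.080), Cxcl1 (0.59), Ccl2 (0.51), Ccl8 (0.76), Cxcr3 (0.54), Cxcr5 (0.011), Ackr3 (0.14), Ccr7 (0.23), Cxcl11 (0.90), Ccl7 (0.41), Ackr1 (0.63), Ccrl2 (0.54) and Ccr1 (0.33). With the Ptprc covariate they were Cxcl16 (0.22), Cxcl12 (0.18), Cxcl1 (0.60), Ccl2 (0.26), Ccl8 (0.21), Cxcr3 (0.56), Cxcr5 (0.047), Cxcr4 (0.10), Ackr3 (0.25), Ccr7 (0.38), Cxcl11 (0.47), Ccl7 (0.21), Ackr1 (0.45), Ccrl2 (0.86) and Ccr1 (0.23). With limma-voom they were Cxcl16 (0.25), Cxcr3 (0.28) and Ccrl2 (0.28), and without a filter Cxcl16 (0.012) and Ackr3 (0.0085).

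Over omissions of 1 library, Cxcl9 ran from -1.35 to -0.05, Cxcl10 from -1.45 to 0.088, Cxcl13 from -1.22 to -0.10, Cxcl16 from -0.10 to 0.25, Cxcl12 from -0.34 to 0.049, Cxcl1 from -0.62 to 0.24, Ccl2 from -0.63 to 0.24 and Ccl8 from -1.33 to 0.078. For each of these the highest value was without IgG 6. Others that changed sign were Cxcr3 (-0.97 to 0.37), Ackr3 (-0.21 to 0.14), Cxcl11 (-1.88 to 0.48), Ccl7 (-0.97 to 0.095), Ackr1 (-0.97 to 0.42), Ccrl2 (-0.54 to 0.58) and Ccr1 (-1.18 to 0.12). The correlation of Ccl8 with Col3a1 was -0.06 within IgG and 0.94 within anti-CD3. Depth limits Cxcl13 and Ccl8, with 2 and 1 counts in anti-CD3 3, and leaves Ccl19 with a test only in the fit without a filter, where it was not called, and Ccl21a with none.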
